A study of Capra hircus with 3 samples.

Results

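Tumour necrosis factor (TNF) is an inflammatory cytokine made mainly by activated leukocytes. It binds the receptors TNFRSF1A and TNFRSF1B, and the signal passes to the kinase IKBKB, which marks the inhibitor NFKBIA for destruction and so frees the NF-kappaB transcription factors for the nucleus. These factors switch on genes of inflammation and survival, among them genes for their own inhibitors NFKBIA and TNFAIP3 and for the subunits NFKB2 and RELB. In the mammary gland, NF-kappaB is known from alveolar development, from the response to udder infection and from involution after weaning.

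The 10 genes TNF, TNFRSF1A, TNFRSF1B, IKBKB, NFKB1, NFKB2, RELA, RELB, NFKBIA and TNFAIP3 were chosen by name and found through their goat NCBI gene IDs. Each had 1 locus with a value, so they make up 10 of the 50041 deposited loci and 10 of the 13023 protein-coding genes with a value. Mammary tissue came from 5 healthy Laoshan dairy goats, 4 years old and in the third lactation, on day 10 (early lactation), day 90 (peak) and day 210 (late) after parturition. No group was treated, and tissue was taken surgically under general anaesthesia at all stages. Equal amounts of RNA from 5 animals made up the single library of each stage, so the spread between goats is lost, no difference has a replicate check and no p-value is given.

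The measure is FPKM, the number of fragments scaled by transcript length and by the mapped reads of the library, which allows levels to be compared between genes. Read counts per gene were not used here, and the precision of each FPKM is unknown. Among low unannotated loci, where single fragments set the value, the most frequent ratio was 0.901 for peak over early, 1.11 for late over early and 1.25 for late over peak, so depth differed little between the libraries. The milk protein genes that define the lactating gland were abundant, with CSN1S1 (alpha-S1-casein) at 25057, 12017 and 39445 FPKM in the early, peak and late libraries. LALBA (alpha-lactalbumin) was listed at 0 in the late library and at 70053 FPKM in the early one, so a listed 0 was not read as absence. Between the peak and late libraries, lncRNA values in the study's supplementary tables run opposite to the deposited columns, with a Pearson r of -0.565 over 140 genes. The supplementary values of early against late had an r of 0.0548 with deposited late over early and 0.466 with peak over early. Those of early against peak had an r of 0.122 with deposited peak over early and 0.270 with late over early. "Early", "peak" and "late" below therefore name libraries by their sample labels only. Every direction between the peak and late libraries turns around if these labels were exchanged, and the comparisons of each with the early library trade places.

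Of the 10 genes, 9 had their highest FPKM in the peak library and their lowest in the late library, with the early library between them. This order was found for 30.6% of all protein-coding genes. RELA was the exception and differed by at most 1.13-fold between libraries, although it too was highest in the peak library when libraries were rescaled to equal FPKM sums over protein-coding genes. The median ratio of the highest to the lowest library was 2.18 over the 10 genes, with a range of 1.13 to 5.93, against 1.49 over the 12764 protein-coding genes above 0 in all 3 libraries.

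**Figure D1:**
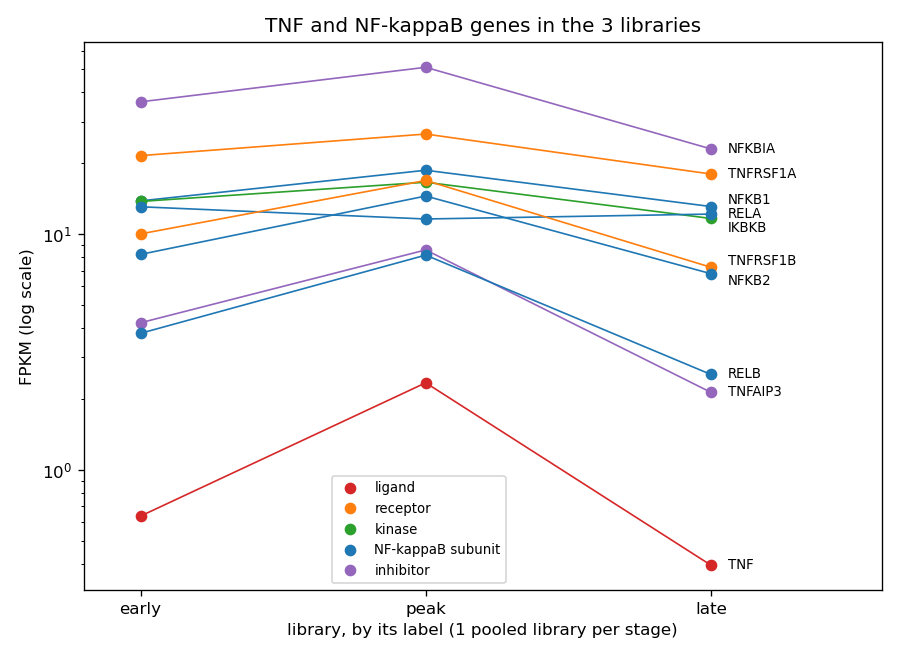
FPKM (log scale) of the 10 genes in the early, peak and late libraries, 1 point per pooled library, coloured by role. Lines join the values of 1 gene. TNF lies lowest, between 0.395 and 2.34 FPKM, and NFKBIA highest, between 23.0 and 51.0 FPKM.

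TNF, the ligand, is listed on scaffold NW_005100920.1 from 361147 to 363899 and was the least abundant of the 10 genes. It had 0.637 FPKM in the early library, 2.34 FPKM in the peak library and 0.395 FPKM in the late library. The peak library was thus the high one, 3.67-fold above early and 5.93-fold above late. TNF also had the widest spread of the 10 genes, and its ratio of peak over early lay above that of 97.8% of protein-coding genes. It stood under 1 FPKM in the early and late libraries, where the value rests on few fragments.

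The receptors were far more abundant than their ligand. TNFRSF1A, the receptor found on most cell types (scaffold NW_005100676.1, 889112 to 901640), had 21.5, 26.6 and 18.0 FPKM in the early, peak and late libraries. Its FPKM was 33.8 times that of TNF in the early library, 11.3 times in the peak library and 45.6 times in the late library. TNFRSF1B, which is largely restricted to leukocytes and endothelium (NW_005100846.1, 6226093 to 6244418), had 10.0, 16.9 and 7.23 FPKM. The ubiquitous receptor stayed within 1.48-fold over the 3 libraries, whereas TNFRSF1B was 1.68-fold higher in the peak than in the early library and 2.33-fold higher than in the late one. The FPKM ratio of TNFRSF1B to TNFRSF1A was accordingly 0.466 in the early, 0.636 in the peak and 0.402 in the late library.

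IKBKB, the kinase that phosphorylates NFKBIA (NW_005100954.1, 2279640 to 2330692), had 13.8, 16.6 and 11.6 FPKM in the early, peak and late libraries. No pair of libraries differed by more than 1.42-fold for this gene. The other kinases and scaffold proteins of this step varied as little. CHUK, the partner kinase, had between 8.81 and 9.0 FPKM. IKBKG, the regulatory subunit of the complex, had 9.14, 8.16 and 8.39 FPKM. TBK1 and IKBKE are related kinases of antiviral signalling, and TANK is their scaffold. TBK1 had 7.60, 7.69 and 7.96 FPKM, IKBKE 19.0, 14.9 and 21.4 FPKM, and TANK 7.04, 9.77 and 7.98 FPKM. None of the 6 genes reached a 2-fold difference in any comparison. Most protein-coding genes did not either. The shares past 2-fold were 17.2% for peak against early, 7.08% for late against early and 24.7% for late against peak.

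The transcription factor subunits fell into a stable and a variable set. RELA, the main activating subunit (NW_005100977.1, 1940857 to 1948997), had 13.1, 11.6 and 12.2 FPKM in the early, peak and late libraries. REL, an activating subunit of lymphocytes, had 10.9, 11.5 and 9.54 FPKM. NFKB1, the precursor of p50 (NW_005100693.1, 353731 to 455703), had 13.8, 18.7 and 13.1 FPKM. These genes therefore stayed within 1.43-fold. The locus given for NFKB1 is also given, with the same start and end, for a gene ID without a symbol at 0.573, 1.58 and 0.476 FPKM.

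NFKB2 and RELB, the pair that carries the alternative NF-kappaB pathway, were the variable subunits. NFKB2 (NW_005100946.1, 6248165 to 6255944) had 8.20 FPKM in the early, 14.5 FPKM in the peak and 6.79 FPKM in the late library. RELB (NW_005102100.1, 67857 to 95210) had 3.80, 8.15 and 2.54 FPKM. Both were high in the peak library alone. The FPKM ratio of RELB to RELA was 0.291 in the early, 0.703 in the peak and 0.209 in the late library. That of NFKB2 to NFKB1 was 0.593, 0.777 and 0.519. MAP3K14, the kinase that starts the alternative pathway, had 2.72, 5.33 and 2.18 FPKM.

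The inhibitors were likewise highest in the peak library. NFKBIA, which holds NF-kappaB in the cytoplasm (NW_005100902.1, 6491583 to 6494011), was the most abundant of the 10 genes at 36.4, 51.0 and 23.0 FPKM in the early, peak and late libraries. It stood above 95.8% of protein-coding genes in the peak library and above 83.9% in the late library. TNFAIP3, the ubiquitin-editing enzyme A20 that ends the signal (NW_005100753.1, 18167014 to 18182843), had 4.21, 8.57 and 2.13 FPKM. It was 2.04-fold higher in the peak than in the early library and 4.02-fold higher than in the late library, and only TNF spread more widely. The FPKM ratio of NFKBIA to TNFAIP3 was 8.65 in the early, 5.95 in the peak and 10.8 in the late library.

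By their labels, the peak and early libraries compare day 90 with day 10. Of the 10 genes, 3 were at least 2-fold higher in the peak library, namely TNF, RELB and TNFAIP3, and none was at least 2-fold lower. Of all 12937 protein-coding genes with a ratio, 10.5% were at least 2-fold higher in the peak library, 6.69% at least 2-fold lower and 17.2% apart in either direction. The log2 ratios were 1.88 for TNF, 1.10 for RELB and 1.03 for TNFAIP3. Those of NFKB2, TNFRSF1B, NFKBIA, NFKB1, TNFRSF1A and IKBKB lay between 0.27 and 0.82. RELA stood at -0.17. The median log2 ratio was 0.62 over the 10 genes and 0.0066 over all protein-coding genes. The call of TNFAIP3 lies just past the 2-fold limit.

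By their labels, the late and early libraries compare day 210 with day 10. None of the 10 genes differed 2-fold. Of 12777 protein-coding genes, 5.44% were at least 2-fold higher in the early library, 1.64% in the late library and 7.08% in either direction. All 10 log2 ratios were negative, from -0.080 for NFKB1 to -0.98 for TNFAIP3. TNF had -0.69, NFKBIA -0.66, RELB -0.58 and TNFRSF1B -0.47. The median log2 ratio was -0.37 over the 10 genes and -0.028 over all protein-coding genes. At a lower limit of 1.5-fold, 3 of the 10 genes (TNF, NFKBIA and TNFAIP3) were higher in the early library, against 11.7% of protein-coding genes. The signs of RELA and NFKB1 turned positive when libraries were rescaled to equal FPKM sums.

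The late and peak libraries, by their labels day 210 and day 90, showed the widest differences. At least 2-fold higher in the peak library were 6 of the 10 genes, against 16.2% of 12807 protein-coding genes, and none was at least 2-fold higher in the late library, against 8.57%, which makes 24.7% of protein-coding genes in either direction. The log2 ratios of late over peak were -2.57 for TNF, -2.01 for TNFAIP3, -1.68 for RELB, -1.22 for TNFRSF1B, -1.15 for NFKBIA and -1.09 for NFKB2. TNFRSF1A, NFKB1 and IKBKB lay between -0.56 and -0.51, and RELA had 0.069. The median log2 ratio was -1.12 over the 10 genes and -0.016 over all protein-coding genes. Each library serves in 2 of the 3 comparisons, so a high level in the peak library alone gives differences in both comparisons that use it.

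**Figure D2:**
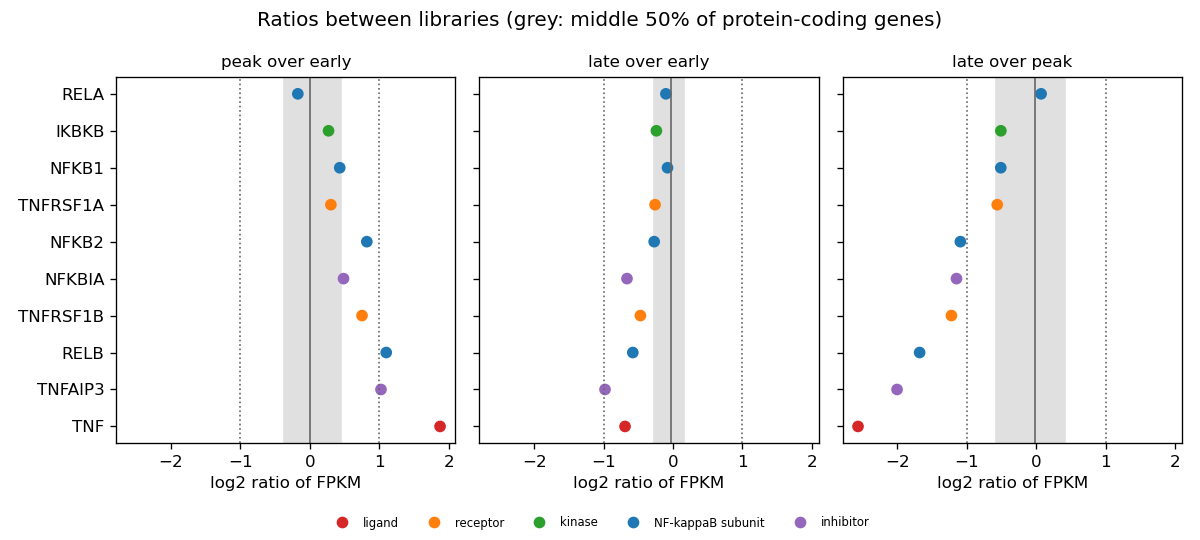
Log2 ratio of FPKM for each of the 10 genes in the 3 comparisons. The grey band is the middle 50% of protein-coding genes, the solid line their median and the dotted lines a 2-fold difference. TNF, TNFAIP3 and RELB lie past 2-fold for peak over early, and 6 genes do so for late over peak.

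The wider pathway was read from lists of its parts, and 115 of 132 listed genes had a value. Of the 105 genes that are not among the 10, 29 were at least 2-fold higher in the peak than in the early library and 3 at least 2-fold lower, where 10.5% and 6.69% of protein-coding genes were. Late against early, 1 of 104 was at least 2-fold higher in the late library and 20 in the early library, where 1.64% and 5.44% of protein-coding genes were. Most of these calls rest on a value under 1 FPKM. With at least 1 FPKM in both libraries, 6 listed genes were left, all higher in the early library. The share of protein-coding genes with that minimum was not computed. Late against peak, 4 of 104 were at least 2-fold higher in the late library and 46 in the peak library, where 8.57% and 16.2% of protein-coding genes were. The median log2 ratios of these genes were 0.33, -0.27 and -0.70 in this order of comparisons.

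Among the ligands of the TNF superfamily, 11 of 18 had a value. Counting TNF, 5 of the 11 were at least 2-fold higher in the peak than in the early library and 1 at least 2-fold lower. Of protein-coding genes, 10.5% and 6.69% were. The median log2 ratio of the ligands was 0.83. TNFSF11 (RANKL), which drives alveolar growth and osteoclast formation, had 0.864, 5.26 and 0.506 FPKM in the early, peak and late libraries. LTB, a lymphocyte ligand that signals through the alternative pathway, had 1.99, 7.65 and 0.598 FPKM. CD40LG, the T cell signal to B cells, had 0.715, 2.76 and 0.113 FPKM, and TNFSF13B (BAFF), a survival factor of B cells, had 2.26, 6.16 and 0.468 FPKM. TNFSF13 (APRIL), a survival factor of plasma cells, ran the other way with 9.49, 4.39 and 13.7 FPKM. Compared with the late library, 5 ligands were at least 2-fold higher in the early one and none was at least 2-fold lower. The protein-coding shares were 5.44% and 1.64%. The early-high ligands included FASLG, the death ligand of cytotoxic cells, at 1.93 and 0.331 FPKM, and TNFSF8 at 1.99 and 0.821 FPKM. In the peak library 8 ligands were at least 2-fold higher than in the late one, and 1 was at least 2-fold lower. Here the protein-coding shares were 16.2% and 8.57%. The median log2 ratio of late over peak was -2.57 over the ligands.

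Of the receptors of this superfamily, 22 of 28 had a value. Counting TNFRSF1A and TNFRSF1B, 9 were at least 2-fold higher in the peak than in the early library and 1 at least 2-fold lower. This compares with 10.5% and 6.69% of protein-coding genes. The median log2 ratio of the receptors was 0.79. Receptors of B cells were among the high ones, with TNFRSF13C (the BAFF receptor) at 0.593, 5.99 and 0.329 FPKM and TNFRSF13B (TACI) at 1.15, 6.48 and 1.15 FPKM in the early, peak and late libraries. EDAR, a receptor of skin and gland appendages, had 0.197, 3.18 and 0.146 FPKM. TNFRSF9, a co-stimulatory receptor of T cells, had 0.185, 2.11 and 0.0682 FPKM, and TNFRSF19 had 1.13, 6.02 and 0.471 FPKM. RELT was the receptor that stood lower, with 37.8 and 35.9 FPKM in the early and late libraries and 6.93 FPKM in the peak library. Against the late library, 5 receptors were at least 2-fold higher in the early one, among them CD40 at 1.93 and 0.401 FPKM, TNFRSF18 at 1.52 and 0.384 FPKM and the decoy receptor TNFRSF6B at 5.90 and 2.75 FPKM. TNFRSF11B (osteoprotegerin), the decoy receptor of TNFSF11, was the 1 receptor at least 2-fold higher in the late than in the early library, with 0.445, 0.301 and 1.12 FPKM in the early, peak and late libraries. Between the late and early libraries, 5.44% of protein-coding genes were at least 2-fold higher in the early and 1.64% in the late one. In the peak library 14 of the 22 receptors were at least 2-fold higher than in the late library, and 2 were at least 2-fold lower. Of protein-coding genes, 16.2% and 8.57% were.

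The adaptors and ubiquitin enzymes that carry the signal from receptor to kinase were steadier than ligands and receptors. All 24 had a value, and 23 of them stayed under 2-fold between the peak and early libraries and all 24 between the late and early libraries. At least 2-fold apart in these comparisons were 17.2% and 7.08% of protein-coding genes. BIRC3 (cIAP2), a ubiquitin ligase that is itself a known NF-kappaB target, was the exception with 25.3, 53.0 and 18.4 FPKM in the early, peak and late libraries. Its close relative BIRC2 had 13.4, 16.2 and 14.4 FPKM. TRAF1, which like BIRC3 also stands in the list of NF-kappaB targets, was lowest in the peak library, at 21.9, 16.7 and 19.1 FPKM. The FPKM ratio of BIRC3 to BIRC2 was 1.88, 3.28 and 1.28. Between the late and peak libraries, BIRC3 and MAP3K14 were at least 2-fold higher in the peak library and the other 22 genes were not. Among protein-coding genes 16.2% were. The median log2 ratios of the list were 0.15, -0.082 and -0.048 for peak over early, late over early and late over peak.

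Of the 7 IkappaB proteins, all with a value, NFKBIE and BCL3 were at least 2-fold higher in the peak than in the early library. The share among protein-coding genes was 10.5%. NFKBIE, a cytoplasmic inhibitor, had 4.58, 16.0 and 4.85 FPKM in the early, peak and late libraries. BCL3, a nuclear co-activator of p50 and p52 dimers, had 1.27, 3.98 and 0.725 FPKM. NFKBIB, the constitutive cytoplasmic inhibitor, had 6.57, 5.03 and 6.37 FPKM. NFKBIZ, a nuclear regulator of secondary response genes, had 15.3, 17.7 and 11.0 FPKM, NFKBID 0.886, 1.05 and 0.709 FPKM, and NFKBIL1 10.1, 7.52 and 8.64 FPKM. Late against peak, NFKBIA joined NFKBIE and BCL3 as at least 2-fold higher in the peak library, against 16.2% of protein-coding genes.

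Of the 16 other inhibitors and deubiquitinases, TNFAIP3 included, 3 were at least 2-fold higher in the peak than in the early library and 1 at least 2-fold lower. These counts stand beside 10.5% and 6.69% of protein-coding genes. TNIP3, a partner of TNFAIP3, had 0.383, 2.71 and 0.0849 FPKM in the early, peak and late libraries, and TNFAIP8L2, a brake of leukocyte signalling, had 2.75, 6.50 and 2.22 FPKM. TAX1BP1, an adaptor that brings TNFAIP3 to its substrates, ran opposite to TNFAIP3 with 89.6, 44.3 and 91.7 FPKM. Between the late and peak libraries, 5 of the 16 were at least 2-fold higher in the peak library, with NLRC5 at 10.7 and 3.01 FPKM and the RNA-degrading ZC3H12A at 12.2 and 4.20 FPKM in the peak and late libraries. The share of protein-coding genes higher in the peak library was 16.2% there. The late and early libraries differed 2-fold for TNIP3 alone among the 16, and for 7.08% of protein-coding genes.

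Many target genes of NF-kappaB were high in the peak library, but some were lowest there. The list also holds 5 of the 10 genes. Without them, 14 of 30 were at least 2-fold higher in the peak than in the early library and none at least 2-fold lower. Among protein-coding genes the shares were 10.5% and 6.69%. The median log2 ratio of the 30 targets was 0.93. The adhesion molecule ICAM1 had 5.70, 18.3 and 3.25 FPKM in the early, peak and late libraries. PSMB9, a subunit of the immunoproteasome, had 15.2, 51.4 and 10.5 FPKM. CCL20, which attracts lymphocytes and dendritic cells, had 0.240 and 8.97 FPKM in the early and peak libraries and was listed at 0 in the late library. The T cell attractants CCL5, at 10.8, 32.8 and 2.0 FPKM, and CXCL10, at 18.6, 42.3 and 2.70 FPKM, were low in the late library. So was CD83, a marker of mature dendritic cells, at 2.18, 3.80 and 0.472 FPKM. GADD45B, at 14.0, 9.47 and 16.1 FPKM, was lowest in the peak library, as were TRAF1, CFLAR, IL15 and SELE. IL6 was highest in the early library, at 1.34, 1.24 and 0.715 FPKM. Late against early, 11 of 29 targets were at least 2-fold higher in the early library and none in the late one. The protein-coding shares were 5.44% and 1.64%. Late against peak, 21 of 29 were at least 2-fold higher in the peak library and none in the late one, where 16.2% and 8.57% of protein-coding genes were. Several of these targets are also induced by interferons or mark leukocytes, so the list is not specific to NF-kappaB.

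**Figure D3:**
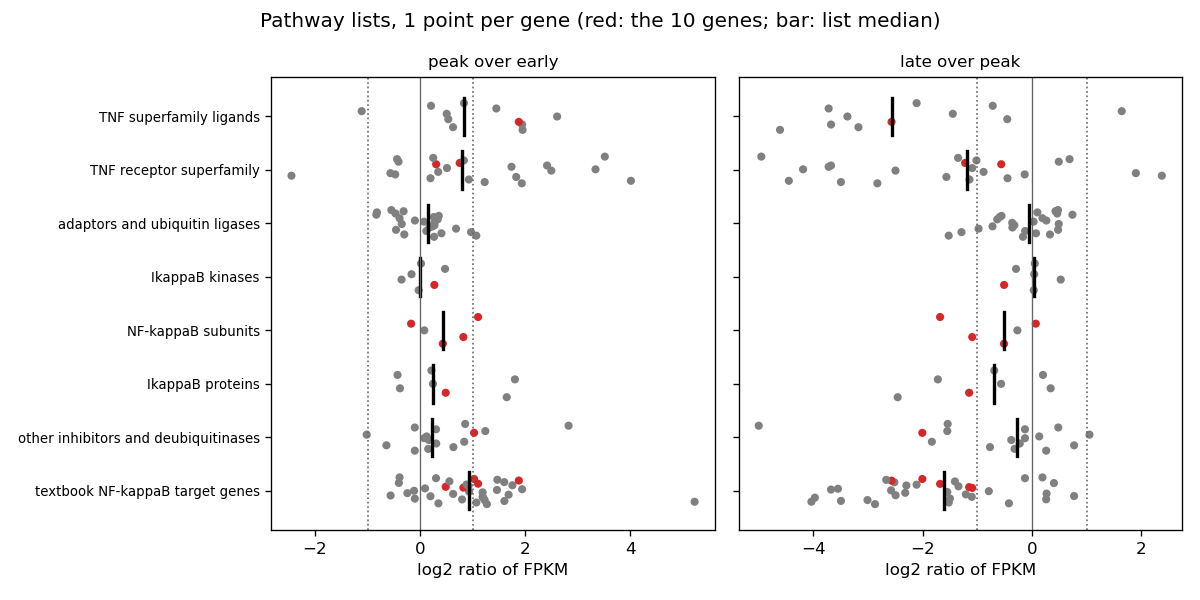
Log2 ratio of FPKM for every gene of each pathway list, peak over early and late over peak. Red points are the 10 genes, black bars list medians and dotted lines a 2-fold difference. Ligands, receptors and target genes spread toward the peak library, while adaptors and IkappaB kinases have medians between -0.048 and 0.15. Genes of the target list can also stand in another list.

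The gene of the pathway lists most like each of the 10 was taken as the one at the smallest distance between log2 profiles over the 3 libraries, each centred on its own mean. With 3 libraries such a distance says little. Nearest to TNF was PSMB9, at a distance of 0.0265, and then BCL3 at 0.127. The nearest pairs were BIRC3 and ZC3H12A for RELB, NLRC5 and IL1A for TNFAIP3, FAS and TNFRSF25 for NFKB2, IER3 and PLAU for TNFRSF1B, and TNFRSF17 and IER3 for NFKBIA. The genes of the flatter kind lay next to each other, with IKBKB nearest to TNFRSF1A and TNFRSF1A nearest to IKBKB at 0.0385, IKBKG nearest to RELA at 0.0213 and BCL2L1 nearest to NFKB1. Second nearest were TRAF3 to TNFRSF1A and NFKB1, LTBR to IKBKB and CHUK to RELA. Of all protein-coding genes with a mean of at least 1 FPKM, between 0.00837% and 1.44% were as near to a given one of the 10 as its nearest listed gene. The lowest share, a single gene, was that of TNF.

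Like the variable genes, the summed markers of lymphocytes, myeloid cells and neutrophils were highest in the peak library and lowest in the late library. In bulk tissue, fewer cells of a type and less RNA per cell cannot be told apart. The summed FPKM of 12 T and B lymphocyte markers was 41.6 in the early, 107 in the peak and 17.4 in the late library. PTPRC, CD3G and CD2 were the most abundant of them. PTPRC, at 17.6, 39.9 and 8.08 FPKM, marks all leukocytes, so this sum is not specific to lymphocytes. In the peak library 11 of the 12 were highest. The exception was CD3E, listed at 0 in the early and peak libraries, although CD3D and CD3G of the same receptor complex were above 0 there. The sum of 9 macrophage and myeloid markers, led by TYROBP, AIF1 and CSF1R, was 91.9, 126 and 52.7 FPKM. Of these 9, 8 were highest in the peak library. However, CD14 (12.4, 12.5 and 11.3 FPKM) and ITGAM (2.290, 2.294 and 0.973 FPKM) hardly differed between the early and peak libraries. The sum of 4 neutrophil markers, led by S100A9, S100A8 and CSF3R, was 13.0, 24.9 and 5.30 FPKM, with S100A8 listed at 0 in the late library. CSF3R itself, at 2.47, 2.44 and 2.70 FPKM, was highest in the late library. CXCR2, at 1.02, 1.11 and 0.762 FPKM, differed little between the early and peak libraries. Plasma cell markers, led by JCHAIN, MZB1 and PRDM1, summed to 291, 500 and 355 FPKM. By this sum the late library stood above the early one, but JCHAIN made up most of it, at 266, 429 and 337 FPKM. Of the 5 plasma cell markers, 3 (MZB1, PRDM1 and TNFRSF17) were lowest in the late library. XBP1 hardly differed between the late and early libraries, at a log2 ratio of 0.018. The median log2 ratio of late over early was -0.39 over the 5 markers.

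The summed markers of the other cell types of the gland were not highest in the peak library. The sums of 12 markers of mammary epithelium were 127805, 34462 and 76333 FPKM in the early, peak and late libraries, most of them from the milk protein genes LALBA, CSN1S1 and CSN3. Without LALBA, which is listed at 0 in the late library, the sums were 57753, 19248 and 76333 FPKM, so the late library then stood above the early one. The list held members of both directions, since the epithelial keratin KRT8 had 126 and 196 FPKM in the early and peak libraries, KRT18 21.0 and 32.0 FPKM and the adhesion protein CDH1 34.5 and 39.8 FPKM. Basal and myoepithelial sums (ACTA2, MYH11 and KRT5 the most abundant) stayed between 255 and 264 FPKM, and endothelial sums (PECAM1, VWF and KDR) between 111 and 135 FPKM. Fibroblast markers summed to 664, 549 and 542 FPKM, but DCN had 131 and 254 FPKM in the early and peak libraries and PDGFRA 13.7 and 28.0 FPKM, while the collagens COL3A1 had 255 and 123 FPKM and COL1A2 138 and 65.8 FPKM. Adipocyte markers, led by ADIPOQ, LIPE and CIDEC, summed to 21.2, 7.82 and 10.5 FPKM. What part these markers have in the values of the 10 genes was not tested.

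**Figure D4:**
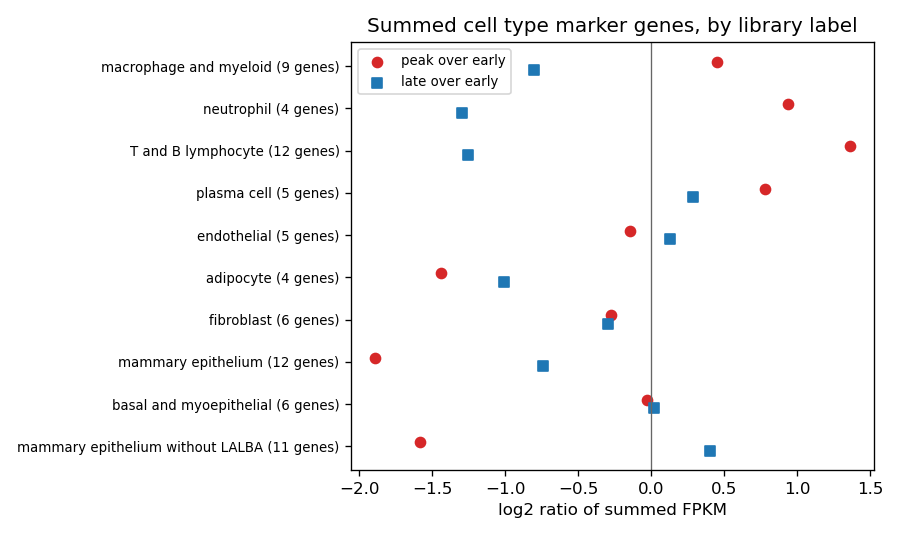
Log2 ratio of summed FPKM of each cell type marker list, for the peak over the early library (circles) and the late over the early library (squares). Lymphocyte, myeloid and neutrophil markers lie right of 0 for peak and left of 0 for late, and the sum for mammary epithelium, mostly milk protein genes, lies lowest for peak with and without LALBA. For late over early it lies left of 0 with LALBA, which is listed at 0 there, and right of 0 without it.

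The levels of the 10 genes were also set against those of the leukocytes, a step chosen after the values had been seen. PTPRC (CD45), which marks all leukocytes, had 17.6, 39.9 and 8.08 FPKM in the early, peak and late libraries, and thus varied more than 9 of the 10 genes. The FPKM ratio of TNF to PTPRC was 0.0362 in the early, 0.0587 in the peak and 0.0488 in the late library. That of TNFAIP3 was 0.239, 0.215 and 0.264, and that of RELB 0.215, 0.204 and 0.314. Per PTPRC, TNF had its highest value in the peak library and the other 9 genes did not.

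Such a division moves the log2 ratio of every gene by the same amount, here -1.18 for peak over early and 2.30 for late over peak, and leaves the distances between genes as they were. On this scale none of the 10 genes was at least 2-fold higher in the peak than in the early library, against 1.37% of protein-coding genes. RELA was at least 2-fold lower there, at a log2 ratio of -1.35, against 61.4% of protein-coding genes. Late against peak, 7 of the 10 were at least 2-fold higher in the late library, where 88.5% of protein-coding genes were, and none in the peak library, where 1.26% were. The 7 were RELA at 2.37, IKBKB and NFKB1 at 1.79, TNFRSF1A at 1.74, NFKB2 at 1.21, NFKBIA at 1.15 and TNFRSF1B at 1.08 on the log2 scale. The other 3 were RELB, TNFAIP3 and TNF.

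The summed myeloid markers varied less than PTPRC and moved all log2 ratios by -0.45 for peak over early and by 1.25 for late over peak. On this scale TNF was still more than 2-fold higher in the peak library in both comparisons, with log2 ratios of 1.43 for peak over early and -1.31 for late over peak. Of protein-coding genes, 4.83% were at least 2-fold higher in the peak than in the early library and 16.9% at least 2-fold lower. Late against peak, 62.7% were at least 2-fold higher in the late library and 4.09% in the peak library. RELB and TNFAIP3 had ratios of 0.65 and 0.57 for peak over early, below the 2-fold limit. For NFKBIA, the FPKM ratio to the myeloid sum was 0.396, 0.405 and 0.436 in the early, peak and late libraries and so differed little. For RELA, it was 0.142, 0.0922 and 0.231, at least 2-fold higher in the late than in the peak library. Which cells held these transcripts was not tested.

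**Figure D5:**
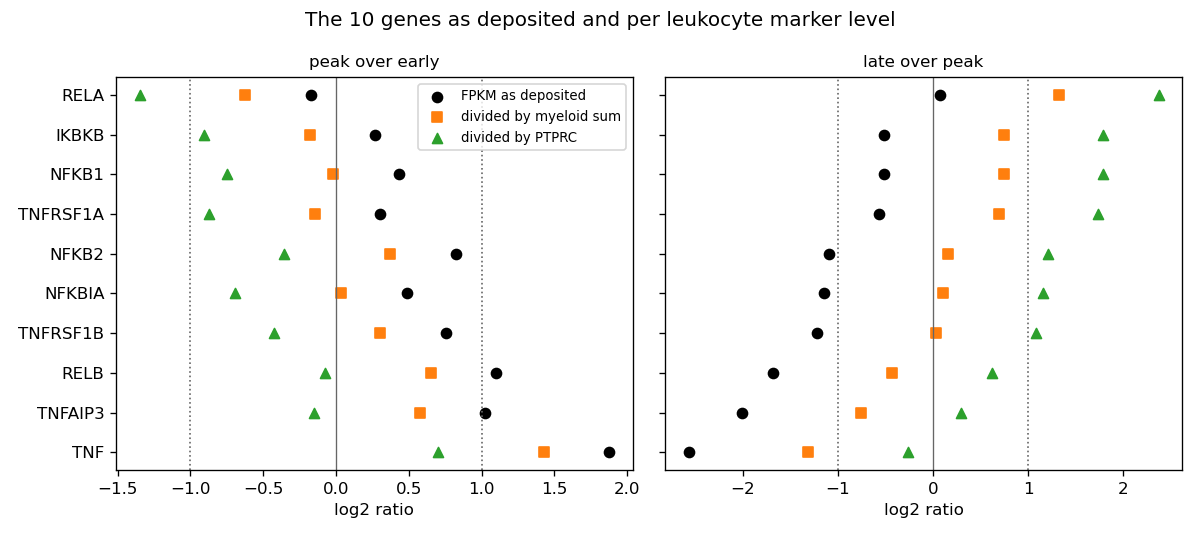
Log2 ratios of the 10 genes for peak over early and late over peak, from FPKM as deposited (circles), divided by the summed myeloid markers (squares) and divided by PTPRC (triangles). Dotted lines mark a 2-fold difference. Each division moves all genes by 1 amount per comparison. TNF lies farthest toward the peak library on all 3 scales, past 2-fold as deposited and per myeloid sum and not per PTPRC.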

How the data were processed

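RNA of 5 goats per stage was pooled into 1 stranded library for each of 3 stages. The authors trimmed reads with Trimmomatic, mapped them with TopHat2 2.0.9, assembled transcripts with Cufflinks 2.1.1, merged them with Cuffmerge and quantified them with Cuffdiff, and they deposited FPKM per locus in 1 column per library. No column was left without a sample. In the early, peak and late libraries 39.4%, 46.4% and 40.6% of values above 0 had 7 digits ending in 5, the form that a mean of a pair of 6-digit numbers takes. Whether the deposited values were averaged is not given in the sources used here. The assembly of the scaffold coordinates is not given in the file, so loci were matched by NCBI gene ID to the gene table of ARS1.2 for symbols only. Of 15274 loci with 1 gene ID, 14403 matched, and loci of 1 ID were summed.

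A gene was called when its FPKM differed at least 2-fold, and a listed 0 gave no ratio. No test was possible with 1 library per stage. The 10 genes and the lists were chosen with earlier results of these data known. Named beyond the 10 are all kinases, subunits and IkappaB proteins, and up to 4 genes per direction of each other list, at least 2-fold apart with at least 1 FPKM in either library, by the ratio with 0.1 added, the 3 most abundant marker genes per list and the 2 nearest genes by profile. BIRC2, TRAF1, GADD45B, CFLAR, IL15, SELE, IL6, CD14, ITGAM, CXCR2, XBP1, CD3D, KRT8, KRT18, CDH1 and PDGFRA are named for contrast, chosen after their values were seen. Fold counting was tested on simulated data. Python 3.11.15, numpy 2.4.6, pandas 2.3.3 and matplotlib 3.10.9 were used.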

Additional observations from a re-analysis of the deposited data

How the results depend on the processing

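With 1 library per stage, no replicate could be left out, and the reads behind low values such as TNF are unknown. No paired analysis was possible because only a single library was made for each. Of the 10 genes, 3, 0 and 6 differed 2-fold for peak against early, late against early and late against peak, and of the pathway lists 35, 21 and 56 genes. At 1.5-fold, 5 and 3 of the 10 differed in the first and second comparison, and 54 and 39 listed genes. At 4-fold, 0 of the 10 differed between peak and early and 2 between late and peak, and 9, 9 and 31 listed genes. Adding 1 FPKM left 1 of the 10 between peak and early and 8 listed genes between late and early. A minimum of 1 FPKM in both libraries left 6 listed genes between late and early and 32 between late and peak. These settings call fewer genes, or more at 1.5-fold, by construction.

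Rescaling to equal FPKM sums over protein-coding genes shifted all log2 ratios by 0.79 upward for peak over early and by 0.61 downward for late over peak. It put 9 of the 10 and 73 listed genes past 2-fold between peak and early, and RELA moved to 0.62. The shift is the same for every gene, so these counts rise by construction. The share of protein-coding genes past 2-fold on this scale was not computed. The protein-coding sums were 478221, 275836 and 421182 FPKM in the early, peak and late libraries. A single unannotated locus, XLOC_043394, held 30%, 46% and 29.9% of the FPKM of all loci. Centring on the median, equal sums over all loci, 0.1 FPKM added and the highest locus per gene left every count within 1.5 times its value.

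With the columns labelled peak and late exchanged, 0 of the 10 and 21 listed genes differed between peak and early, and 3 and 35 between late and early. The log2 ratios for peak over early became -0.69 for TNF, -0.58 for RELB and -0.98 for TNFAIP3. Those for late over peak became 2.57 for TNF, 2.01 for TNFAIP3, 1.68 for RELB, 1.22 for TNFRSF1B, 1.15 for NFKBIA and 1.09 for NFKB2.

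Divided by PTPRC, chosen after seeing the data and moving all genes alike, 1 and 2 of the 10 differed between peak and early and between late and early, and 52 and 85 listed genes between late and early and between late and peak. On this scale 61.4% of protein-coding genes were at least 2-fold higher in the early than in the peak library and 1.37% lower. Late against peak, 88.5% were at least 2-fold higher in the late library and 1.26% in the peak library. The share between late and early was not computed. RELB turned to -0.076 and TNFAIP3 to -0.15 for peak over early. For late over peak, RELB turned to 0.62, TNFAIP3 to 0.30, TNFRSF1B to 1.08, NFKBIA to 1.15 and NFKB2 to 1.21. Divided by the myeloid sum, also chosen after seeing the data, 1 of the 10 differed between peak and early and 2 between late and peak. TNFRSF1B turned to 0.031, NFKBIA to 0.10 and NFKB2 to 0.16 for late over peak.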

Other observations

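Loci within 5000 nt of the 10 genes were read for their own values. LTB lies 2017 nt from TNF, and the unannotated locus XLOC_043717, 2537 nt from TNF on its other side, had 0.220 and 1.23 FPKM in the early and peak libraries and was listed at 0 in the late library. Beside NFKB1, the unannotated XLOC_012178, at a distance of 1837 nt, had 0.664, 4.56 and 0.492 FPKM in the early, peak and late libraries, and XLOC_012177, at 4795 nt, had 1.04, 2.51 and 0.577 FPKM. XLOC_012207 begins 181 nt past the end of the NFKB1 locus and had 2.78, 4.06 and 2.49 FPKM. Unannotated loci, 3 in number, follow TNFRSF1B within this distance, and their FPKM stayed between 0.991 and 2.43 in the 3 libraries. Near RELA the pattern was different, with XLOC_050076, 4454 nt away, at 0.288, 0.521 and 3.64 FPKM and thus highest in the late library. PLEKHG6, whose locus starts 182 nt past TNFRSF1A, had 0.124, 1.18 and 0.206 FPKM. Whether these loci are separate transcripts or parts of the neighbouring genes was not tested.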
